A study of Mus musculus with 12 samples.

Results

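Chromatin accessibility was examined at 10 genes that decide whether a cell passes from G1 into S phase, in embryonic stem cells (mESCs) and embryonic fibroblasts (MEFs) of the mouse. The genes were the D-type cyclins Ccnd1, Ccnd2 and Ccnd3, the E-type cyclins Ccne1 and Ccne2, the Cip/Kip inhibitors Cdkn1a (p21) and Cdkn1b (p27), and the Ink4 inhibitors Cdkn2a (p16Ink4a and p19Arf), Cdkn2b (p15) and Cdkn2c (p18). Their regions were chosen by position alone, as every peak that overlapped an annotated gene body (GENCODE M21, GRCm38) extended by 10 kb on each side. This gave 71 of 91354 peaks in the set built from BGI reads of both cell types and 70 of 87027 peaks in the set built from Illumina reads.

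The data were OMNI-ATAC-seq libraries, in which a transposase cuts and tags open DNA. Cells of the C57/Bl6 background were sorted before library preparation, MEFs as THY1+ cells and mESCs as THY1-/SSEA1+/EPCAM+ cells, and the labels name no treatment or engineered allele in either group. Each cell type had 3 biological replicate libraries (MEF libraries 1, 2 and 4, mESC libraries 1, 3 and 5), all read on both a BGI DNBSEQ-G400 and an Illumina HiSeqX10, which gave 12 samples in 4 groups. Throughout, values of 3 libraries are given in this order. On the BGI peak set the BGI reads in peaks numbered 20085886 to 21662775 in MEFs and 15860985 to 16911482 in mESCs. On the Illumina peak set the Illumina reads numbered 20127546 to 21441767 and 15996202 to 16958488.

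Both labels were checked at marker promoters. In mESCs all 8 pluripotent cell marker promoters, Pou5f1, Nanog, Sox2, Esrrb, Zfp42, Tdgf1, Dppa5a and the sorting marker Epcam, were higher on both platforms (median log2 fold change 4.75 for BGI), and 7 of 8 fibroblast marker promoters, the sorting marker Thy1 among them, were lower (median -2.29). Pdgfra was the exception (24.7 ± 1.69 CPM in MEFs and 27.3 ± 3.51 CPM in mESCs, SD, n = 3, edgeR adjusted p = 0.529). Of 12 genes that mark endothelium, blood, endoderm or epithelium, Cdh5, Ptprc and Spi1 had no promoter peak. On both platforms 5 of the other 9 (Gata4, Sox17, Krt8, Krt18 and Cdh1) were higher in mESCs and 2 (Csf1r and Gata6) were lower, and their part in the results below was not tested.

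D-type cyclins activate CDK4 and CDK6 in response to mitogens, and E-type cyclins activate CDK2. Both kinases phosphorylate the retinoblastoma proteins, which frees E2F factors to transcribe the genes of S phase. Ink4 proteins bind CDK4 and CDK6, and Cip/Kip proteins bind cyclin-CDK2 complexes, and both slow this step. Mouse embryonic stem cells are known for a short G1 phase with little control by the retinoblastoma pathway, whereas fibroblasts in culture accumulate Ink4 and Arf proteins as they age.

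The sequences of 8 peaks away from the genes' own promoters are shown first, since the largest differences between the cell types lay there. Each is the central part of the peak on the plus strand of GRCm38, read 5′ to 3′ from the reference genome. Capitals mark a match within these bases to a searched motif other than SP (GGGCGG), which is left in lower case. The matches were to ESRRB (TCAAGGTCA) and KLF (GGGTGTGG) letters in the Ccnd3 peak at 47568936, both on the minus strand, to AP-1 letters (TGANTCA) in the Cdkn1a peak, and to RUNX (AACCACA, minus strand) and SOX (CATTGTT) letters in the peak between Cdkn2a and Cdkn2b. The Ccnd3, Ccnd2 and Cdkn1a peaks are intronic and the last one is intergenic. The peaks shown are a selection. Gains that were not shown but exceed some of these changes in size include Ccne2 at 11200453 (4.19) and Ccne1 at 38093040 (3.70, with a SOX match). Cdkn1a at 29083559 (2.97, with an AP-1 match) is another.
Ccnd3, mESC peak at 47531236, chr17:47531361-47531611: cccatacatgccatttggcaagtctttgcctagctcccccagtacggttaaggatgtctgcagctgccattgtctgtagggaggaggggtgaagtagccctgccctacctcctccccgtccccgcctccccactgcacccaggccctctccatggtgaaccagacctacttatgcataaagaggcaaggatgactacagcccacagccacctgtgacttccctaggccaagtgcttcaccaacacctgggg
Ccnd3, mESC peak at 47566031, chr17:47566156-47566406: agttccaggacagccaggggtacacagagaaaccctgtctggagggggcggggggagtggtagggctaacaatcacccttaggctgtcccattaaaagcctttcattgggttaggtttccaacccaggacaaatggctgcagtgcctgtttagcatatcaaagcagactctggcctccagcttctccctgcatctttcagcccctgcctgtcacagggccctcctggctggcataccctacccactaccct
Ccnd3, mESC peak at 47568936, chr17:47569061-47569311: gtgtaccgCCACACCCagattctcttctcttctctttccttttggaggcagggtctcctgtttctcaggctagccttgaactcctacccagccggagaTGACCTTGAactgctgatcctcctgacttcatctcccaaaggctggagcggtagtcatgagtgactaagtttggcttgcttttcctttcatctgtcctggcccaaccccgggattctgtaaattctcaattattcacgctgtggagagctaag
Ccnd3, mESC peak at 47571598, chr17:47571723-47571973: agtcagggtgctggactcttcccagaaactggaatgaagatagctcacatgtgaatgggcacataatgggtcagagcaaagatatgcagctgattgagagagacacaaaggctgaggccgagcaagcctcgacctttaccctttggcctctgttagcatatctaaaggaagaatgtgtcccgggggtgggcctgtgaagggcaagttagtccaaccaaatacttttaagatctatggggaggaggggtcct
Ccnd3, MEF peak at 47518166, chr17:47518291-47518541: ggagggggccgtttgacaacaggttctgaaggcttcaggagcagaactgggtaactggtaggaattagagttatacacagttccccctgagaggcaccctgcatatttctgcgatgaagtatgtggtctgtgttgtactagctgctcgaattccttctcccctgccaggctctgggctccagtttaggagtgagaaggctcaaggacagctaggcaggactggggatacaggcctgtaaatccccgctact
Ccnd2, MEF peak at 127132691, chr6:127132816-127133066: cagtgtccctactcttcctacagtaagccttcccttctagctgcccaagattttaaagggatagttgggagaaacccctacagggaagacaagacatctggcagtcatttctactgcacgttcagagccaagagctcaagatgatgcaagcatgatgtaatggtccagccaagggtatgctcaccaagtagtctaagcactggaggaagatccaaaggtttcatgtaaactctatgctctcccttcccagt
Cdkn1a, MEF-high peak at 29095257, chr17:29095382-29095632: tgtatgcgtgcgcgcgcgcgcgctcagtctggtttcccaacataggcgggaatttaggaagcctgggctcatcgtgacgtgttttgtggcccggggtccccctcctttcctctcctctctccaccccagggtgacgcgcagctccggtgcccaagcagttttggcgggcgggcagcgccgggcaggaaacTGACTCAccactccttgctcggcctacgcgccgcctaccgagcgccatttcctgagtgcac
Cdkn2a and Cdkn2b, MEF peak at 89302053, chr4:89302178-89302428: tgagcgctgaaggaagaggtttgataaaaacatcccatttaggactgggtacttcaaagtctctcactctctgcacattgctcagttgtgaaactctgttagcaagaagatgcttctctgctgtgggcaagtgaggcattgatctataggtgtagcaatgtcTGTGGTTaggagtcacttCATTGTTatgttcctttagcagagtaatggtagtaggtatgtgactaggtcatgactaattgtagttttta

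Accessibility differed between the cell types at most peaks of the G1 genes, as it did over all peaks. With BGI-derived data 31 of 71 peaks were higher in mESCs, 21 were lower and 19 were not called by edgeR's quasi-likelihood test at an adjusted p of 0.05. Among all 91354 peaks 40.9% were higher and 43.2% were lower, 84.1% in all. With Illumina-derived data 34 of 70 peaks were higher and 21 lower, against 42.1% and 42.4% of all 87027 peaks, 84.5% in all. Accessibility is given as CPM, the reads in a peak per 1000000 reads in all peaks of its set, and differences are log2 fold changes of mESCs over MEFs with their standard error. In bulk samples, a smaller share of cells with an open region and a less open region in each cell cannot be told apart.

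The 28 peaks within 1 kb of a start of their own gene had a median log2 fold change of -0.20, with 7 higher (25.0%), 11 lower (39.3%) and 10 not called. Among all promoter peaks 31.3% were higher and 41.0% lower, so the share of losses was near that background. Their median size of change was 0.38, against 0.61 for all 29808 promoter peaks of the set. The other 43 peaks had a median of 0.68, with 24 higher (55.8%), 10 lower (23.3%) and 9 not called, and 7 of them were promoter peaks of other genes. Among all peaks outside promoters 45.5% were higher and 44.3% lower. The median size of change was 1.77 at the 17 intronic peaks, against 2.63 at all intronic peaks, and 1.20 at the 13 intergenic peaks, against 2.65 at all intergenic peaks. Changes of at least 3 on the log2 scale were seen at 10 of 71 peaks (14.1%), against 31.2% of all peaks, and 6 of these 10 were intronic. Changes of at least 1 were seen at 21.4% of own promoters and 53.5% of the other peaks, against 34.1% of all promoter peaks and 77.1% of all peaks outside promoters. The 7 promoter peaks of other genes are among the other peaks but not in that background outside promoters. Of these 7, 1 was higher, 4 were lower and 1 changed by at least 1.

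**Figure D1:**
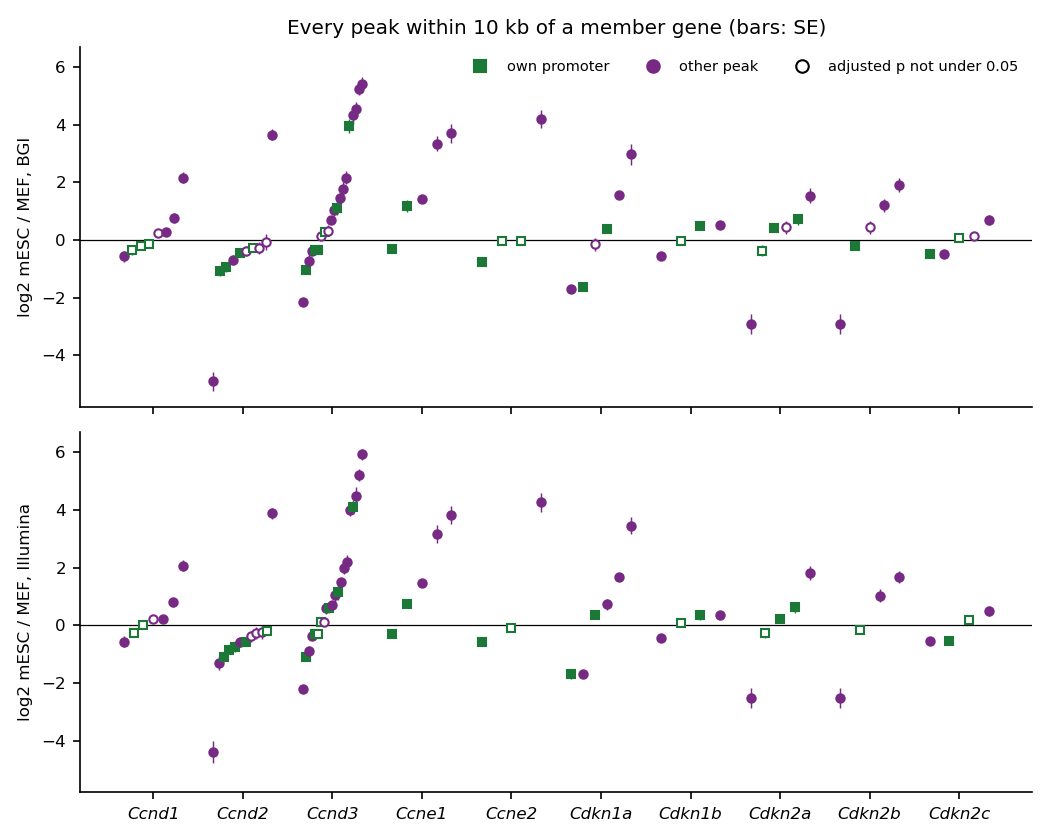
Log2 fold change of mESCs over MEFs (vertical axis) at each peak of the 10 G1 genes (horizontal axis), with a point per peak and bars for the standard error. The upper panel shows BGI reads and the lower panel Illumina reads. Squares are own promoters, circles other peaks and open symbols peaks that were not called. With BGI reads Ccnd2 reaches from -4.91 to 3.65 and Ccnd3, with 20 peaks, from -2.15 to 5.41, whereas all peaks of Cdkn1b lie between -0.55 and 0.51.

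By family, the D-type cyclins held 38 peaks (15 higher, 12 lower, 11 not called), the E-type cyclins 9 (5, 2 and 2), the Cip/Kip inhibitors 10 (5, 3 and 2) and the Ink4 inhibitors 14 (6, 4 and 4). Over all peaks 40.9% were higher and 43.2% lower. All 4 peaks of the E-type cyclins outside their own promoters were higher in mESCs, with a median log2 fold change of 3.52. Among all peaks outside promoters 45.5% were higher, and the median size of change was 2.57. With BGI reads 0 of the 24 Cip/Kip and Ink4 peaks reached a size of 3. The counts were 7 of 38 (18.4%) at the D-type cyclins and 3 of 9 (33.3%) at the E-type cyclins, against 31.2% of all peaks. The E-type share was thus near that background and the D-type share below it. The nearest inhibitor peak was Cdkn1a at 29083559, at 2.97 with BGI reads and 3.45 with Illumina reads.

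Summed over each gene's window, the ratio of BGI CPM between mESCs and MEFs was largest at Ccne1, where MEF libraries held 61.2, 60.3 and 70.7 CPM and mESC libraries 128.4, 124.5 and 117.2 CPM, a ratio of 1.93. Ccnd3 followed with 255.1, 257.9 and 295.1 CPM in MEFs and 425.3, 446.6 and 395.6 CPM in mESCs, a ratio of 1.57. The ratio of the other 8 genes lay between 0.847 (Ccnd2) and 1.23 (Ccnd1), and at Cdkn1a, Cdkn1b and Ccne2 it was 1.02, 1.02 and 1.03. The library sums of the cell types overlapped at Ccne2, Cdkn1a, Cdkn1b and Cdkn2b and not at the other 6 genes. The share of all genes without overlap was not counted, and 84.1% of all peaks were called between the cell types. No test was run on these sums, which combine peaks that moved in opposite directions.

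Ccnd3 (chr17:47505051-47599691, plus strand), which encodes cyclin D3, carried the strongest gains. Of its 20 peaks, 11 were higher in mESCs, 6 were lower and 3 were not called. The strongest gain lay in an intron at chr17:47571598-47572099, between the upstream and the downstream group of annotated starts. Its BGI values were 0.508, 1.39 and 0.697 CPM in MEFs and 33.3, 49.1 and 32.7 CPM in mESCs. These stand for 11, 28 and 14 reads against 528, 831 and 527 reads, so the MEF values rest on few reads. The log2 fold change was 5.41 ± 0.25 (adjusted p = 4.09e-12), a 42.5-fold difference, and it was 5.21 with Illumina reads.

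The intronic peak at 47566031 showed the same contrast, with 0.739, 0.497 and 0.946 CPM in MEFs and 27.9, 30.7 and 27.6 CPM in mESCs. Its log2 fold change was 5.23 ± 0.20 (adjusted p = 3.92e-13) for BGI and 5.92 for Illumina, and the 0.69 between them was the largest difference between platforms among the matched peaks. At 47531236 the MEF libraries held 0.554, 0.746 and 0.797 CPM and the mESC libraries 16.6, 18.9 and 16.0 CPM (4.55 ± 0.22, adjusted p = 6.01e-12). The fourth, at 47568936, held 0.323, 0.298 and 0.846 CPM against 10.8, 10.3 and 10.2 CPM (4.34 ± 0.31, adjusted p = 6.25e-10). At all 4 of these intronic peaks every mESC library was above every MEF library, and the peak caller had placed a summit in none of the 3 MEF libraries on either platform. In mESCs the fold enrichment that the authors' peak caller gave at 47571598 ranged from 35.19 to 52.35 over the 6 mESC samples.

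A further peak absent from the MEF list, and within 1 kb of a start, lay upstream of the first start, at chr17:47503713-47504214. It held 0.923, 0.646 and 0.797 CPM in MEFs and 15.3, 11.4 and 11.9 CPM in mESCs (3.94 ± 0.25, adjusted p = 1.11e-10). Repeats made up 57.8% of its bases, and their part in the value was not tested. The most accessible peak of the gene, at chr17:47511212-47511713 in its 5′ intron, was open in both cell types. There the MEF libraries held 32.3, 37.4 and 37.4 CPM and the mESC libraries 104, 109 and 91.2 CPM (1.44 ± 0.10, adjusted p = 2.33e-10).

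Among the Ccnd3 peaks, loss of accessibility in mESCs was strongest in the intron at chr17:47518166-47518667. Its values were 28.5, 27.1 and 32.9 CPM in MEFs and 7.88, 6.62 and 6.40 CPM in mESCs, with no overlap. The log2 fold change was -2.15 ± 0.13 (adjusted p = 1.06e-10), and -2.21 with Illumina reads. At 47595722, beside one of the downstream starts, the MEF libraries held 29.6, 29.1 and 33.5 CPM and the mESC libraries 14.5, 18 and 14.4 CPM (-1.04 ± 0.12, adjusted p = 2.61e-07).

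Of the 6 peaks within 1 kb of a Ccnd3 start, 47503713 and 47595722 are given above, and 47596713 was also higher in mESCs, with 2.12, 2.88 and 3.53 CPM in MEFs and 6.81, 6.74 and 5.65 CPM in mESCs (1.11 ± 0.24, adjusted p = 0.000419). The most accessible peak at each group of starts changed less. The peak over the downstream promoter at chr17:47593155-47593656 held 37.3, 35.9 and 40.3 CPM in MEFs and 32.0, 33.8 and 28.2 CPM in mESCs, a log2 fold change of -0.34 ± 0.10 (adjusted p = 0.00474). With the depths before peak calling as library sizes, the value was -0.20 (adjusted p = 0.118). With Illumina reads it was -0.31 (adjusted p = 0.0117), which was not called without mESC library 5 (adjusted p = 0.0828) or with those depths (-0.18, adjusted p = 0.155). The peak over the upstream promoter at 47504842 held 13.2, 12.7 and 16.3 CPM in MEFs and 12.4, 11.4 and 10.6 CPM in mESCs (-0.36 ± 0.15, adjusted p = 0.0299). That call was lost without MEF library 1 (adjusted p = 0.0606), MEF library 4 (0.116), mESC library 3 (0.0855) or mESC library 5 (0.119), with the depths before peak calling (0.183), and with Illumina reads on their own peak set (adjusted p = 0.0645). The sixth, at 47598024, was not called (0.29 ± 0.14, adjusted p = 0.0597), but gained a call under 6 alternatives (adjusted p = 0.00855 to 0.0407), RLE size factors, DESeq2 and the depths before peak calling among them. A smaller loss at 47527485 (-0.72 ± 0.23) was also not called without MEF library 4 (adjusted p = 0.0547) or mESC library 3 (adjusted p = 0.08). A gain at 47523006 was called with Illumina reads (0.59, adjusted p = 0.00748) and not with BGI reads (0.32, adjusted p = 0.0996, or 0.0246 with the depths before peak calling), and the Illumina call was lost without mESC library 5 (adjusted p = 0.0542).

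**Figure D2:**
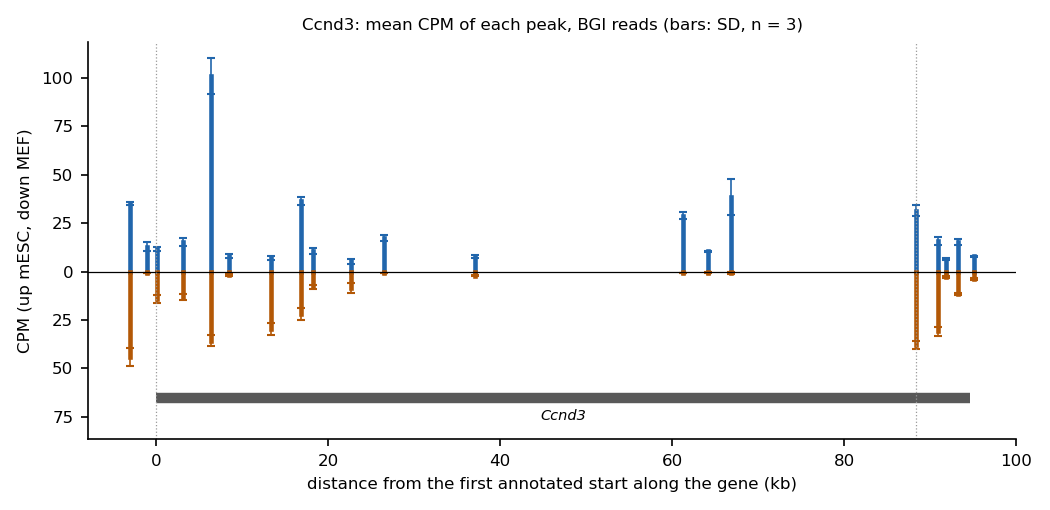
Mean CPM (BGI reads, bars with SD, n = 3 libraries) of each peak along Ccnd3, by distance in kb from the first annotated start, with mESCs upward and MEFs downward and the gene body in grey. The 4 tall mESC bars in the introns with almost no MEF bar are the peaks at 47531236, 47566031, 47568936 and 47571598, and the longest mESC bar, at 47511212, has a MEF bar beneath it.

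Ccnd2 (chr6:127125162-127152193, minus strand), which encodes cyclin D2, had more losses than gains. Of its 10 peaks, 1 was higher in mESCs, 5 were lower and 4 were not called. The strongest loss among all 71 peaks lay in its intron at chr6:127132691-127133192, with 9.51, 8.95 and 15.7 CPM in MEFs and 0.378, 0.414 and 0.373 CPM in mESCs. These stand for 206, 180 and 316 reads against 6, 7 and 6 reads. The log2 fold change was -4.91 ± 0.32 (adjusted p = 2.16e-10), a 30.1-fold difference, and -4.39 with Illumina reads.

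The only Ccnd2 gain was the peak next to that loss, over an exon at chr6:127130418-127130919. It held 1.85, 1.64 and 1.64 CPM in MEFs and 19.5, 28.0 and 20.0 CPM in mESCs (3.65 ± 0.20, adjusted p = 2.31e-11). A region listed only in MEFs and one listed only in mESCs thus stood side by side in the 3′ part of the gene.

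Around the Ccnd2 start, 3 peaks were lower in mESCs. The peak at 127150788 held 14.8, 13.7 and 16.0 CPM in MEFs and 7.75, 6.45 and 7.70 CPM in mESCs (-1.09 ± 0.15, adjusted p = 2.68e-06). At 127151489 the difference was -0.94 ± 0.16 (adjusted p = 2.97e-05). The most accessible of the 3, at 127152372, had the smallest loss and held 16.0, 16.8 and 19.9 CPM against 11.6, 14.5 and 14.2 CPM (-0.45 ± 0.14, adjusted p = 0.00568), which was -0.31 (adjusted p = 0.0581) with the depths before peak calling. An inner promoter at 127147647 was not called (-0.29 ± 0.13, adjusted p = 0.0547), and a further annotated start at 127139152 had no peak.

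Ccnd1 (chr7:144929931-144939925, minus strand), which encodes cyclin D1, had 8 peaks, of which 3 were higher in mESCs, 1 was lower and 4 were not called. Its promoter at chr7:144939544-144940045 held 18.2, 18.6 and 17.6 CPM in MEFs and 15.7, 19 and 17 CPM in mESCs, and the ranges overlapped (-0.14 ± 0.12, adjusted p = 0.297). The largest gain was over an exon at 144931739, with 3.55, 4.03 and 3.63 CPM in MEFs and 19.9, 14.0 and 18.9 CPM in mESCs (2.16 ± 0.18, adjusted p = 3.3e-09). Upstream of the promoter, the peak at 144942061 held 5.86, 6.96 and 8.41 CPM against 11.9, 12.3 and 13.7 CPM (0.77 ± 0.17, adjusted p = 0.00038). The one loss, at 144935491 (-0.57 ± 0.20, adjusted p = 0.0165), was not called without mESC library 3 (-0.37, adjusted p = 0.113) or with the depths before peak calling (-0.42, adjusted p = 0.0598). The peak at 144941407 was called higher on both platforms (0.29 for BGI and 0.23 for Illumina), and the Illumina call was lost without MEF library 2 (adjusted p = 0.0995), MEF library 4 (0.123) or mESC library 5 (0.0957).

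Ccne1 (chr7:38097984-38107534, minus strand), which encodes cyclin E1, gained at 4 of its 5 peaks. The largest amount of signal was added upstream, at chr7:38111939-38112440, with 22.1, 22.9 and 25.7 CPM in MEFs and 65.9, 64.8 and 64.7 CPM in mESCs. The mESC libraries were all above the MEF libraries and close together (1.40 ± 0.09, adjusted p = 1.6e-10). The neighbouring peak at 38112884 held 0.923, 1.24 and 0.747 CPM against 12.7, 8.69 and 9.63 CPM (3.34 ± 0.27, adjusted p = 2.46e-09).

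Downstream of Ccne1, the peak at chr7:38093040-38093541 held 0.554, 0.895 and 0.398 CPM in MEFs and 10.8, 6.21 and 8.39 CPM in mESCs (3.70 ± 0.33, adjusted p = 9.58e-09). The most accessible promoter peak, at chr7:38107312-38107813, held 32.9, 32.1 and 39.2 CPM in MEFs and 29.3, 34.3 and 24.7 CPM in mESCs, so that the ranges overlapped. Its log2 fold change of -0.30 ± 0.12 was called (adjusted p = 0.0288), but not without MEF library 1 (adjusted p = 0.0679), MEF library 4 (0.11), mESC library 1 (0.0685) or mESC library 5 (0.176). With Illumina reads it was -0.31 (adjusted p = 0.0015). With the depths before peak calling neither was called (-0.16, adjusted p = 0.272 for BGI and -0.19, adjusted p = 0.0693 for Illumina). The second promoter peak of Ccne1, at 38108112, held 4.75, 3.28 and 4.63 CPM in MEFs and 9.71, 10.5 and 9.82 CPM in mESCs and was higher in mESCs (1.18 ± 0.20, adjusted p = 2.4e-05), also with Illumina reads (0.73, adjusted p = 7.81e-05).

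Ccne2 (chr4:11191351-11204779, plus strand), which encodes cyclin E2, had the most accessible promoter of the named peaks that were not called. At chr4:11191067-11191568 the MEF libraries held 49.9, 46.6 and 50.9 CPM and the mESC libraries 46.8, 54.8 and 47.9 CPM (-0.05 ± 0.09, adjusted p = 0.654). With Illumina reads it was not called either (-0.08, adjusted p = 0.365), except without mESC library 3 (-0.19, adjusted p = 0.0115). Its one gain, at 11200453, lay in an intron that also belongs to Ints8, with 0.415, 0.497 and 0.398 CPM against 9.46, 6.62 and 9.32 CPM (4.19 ± 0.30, adjusted p = 7.54e-10). Here 45% of the bases were marked as repeats in the reference, and their part in the value was not tested. The peak at 11192096, beside an inner start, was lower in mESCs, with 15.0, 16.6 and 16.4 CPM against 9.58, 10.5 and 9.26 CPM (-0.78 ± 0.14, adjusted p = 4.92e-05).

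Cdkn1a (chr17:29090976-29100727, plus strand), which encodes the p53 target p21, had gains and losses close to its start. The most accessible promoter peak, at chr17:29093458-29093959, held 32.4, 25.9 and 29.7 CPM in MEFs and 35.8, 44.6 and 40.4 CPM in mESCs (0.39 ± 0.11, adjusted p = 0.00357). With Illumina reads it was 0.35 (adjusted p = 0.0064), which was not called without MEF library 2 (adjusted p = 0.0647). In the intron, at chr17:29095257-29095758, the values were 36.7, 37.1 and 33.1 CPM in MEFs and 9.33, 12.9 and 11.7 CPM in mESCs (-1.72 ± 0.13, adjusted p = 1.05e-09). This peak also lies at the start of AC167363.2, an unverified transcript. The adjoining peak at 29094707, also within 1 kb of a Cdkn1a start, fell likewise, from 16.3, 13.8 and 15.8 CPM to 4.92, 4.97 and 5.72 CPM (-1.62 ± 0.16, adjusted p = 3.65e-08).

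Upstream of Cdkn1a both of the called peaks were higher in mESCs. The peak at 29080698 held 10.1, 10.8 and 7.87 CPM in MEFs and 32.1, 25.0 and 30.9 CPM in mESCs (1.54 ± 0.14, adjusted p = 1.59e-08). The peak at 29083559 held 1.38, 0.596 and 0.398 CPM against 6.05, 6.98 and 6.90 CPM (2.97 ± 0.36, adjusted p = 4.74e-07).

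Cdkn1b (chr6:134920401-134925513, plus strand), which encodes p27, had the smallest changes, since none of its 4 peaks moved by more than 0.55 in size. The peak over its start at 134920375 held 31.3, 29.5 and 31.0 CPM in MEFs and 30.9, 32.7 and 30.1 CPM in mESCs (-0.04 ± 0.10, adjusted p = 0.725), whereas the adjoining peak at 134919833 held 20.1, 18.9 and 18.1 CPM against 27.5, 29.0 and 26.6 CPM (0.47 ± 0.11, adjusted p = 0.000575). Neither had a matched Illumina peak, since the Illumina peaks were placed differently across the promoter. The Illumina peak at 134919496 was called (0.34, adjusted p = 0.0436), but not without any one of 5 libraries (adjusted p = 0.0555 without MEF library 1, 0.156 without MEF library 2, 0.0761 without MEF library 4, 0.197 without mESC library 1 and 0.0785 without mESC library 3). Downstream, 134927187 was higher (0.51 ± 0.15, adjusted p = 0.00379), and with Illumina reads its call (0.37) was lost without MEF library 2 (adjusted p = 0.0612) or mESC library 3 (0.101). The promoter of the non-coding RNA gene Lockd at 134928481 was lower (-0.55 ± 0.09, adjusted p = 2.32e-05).

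**Figure D3:**
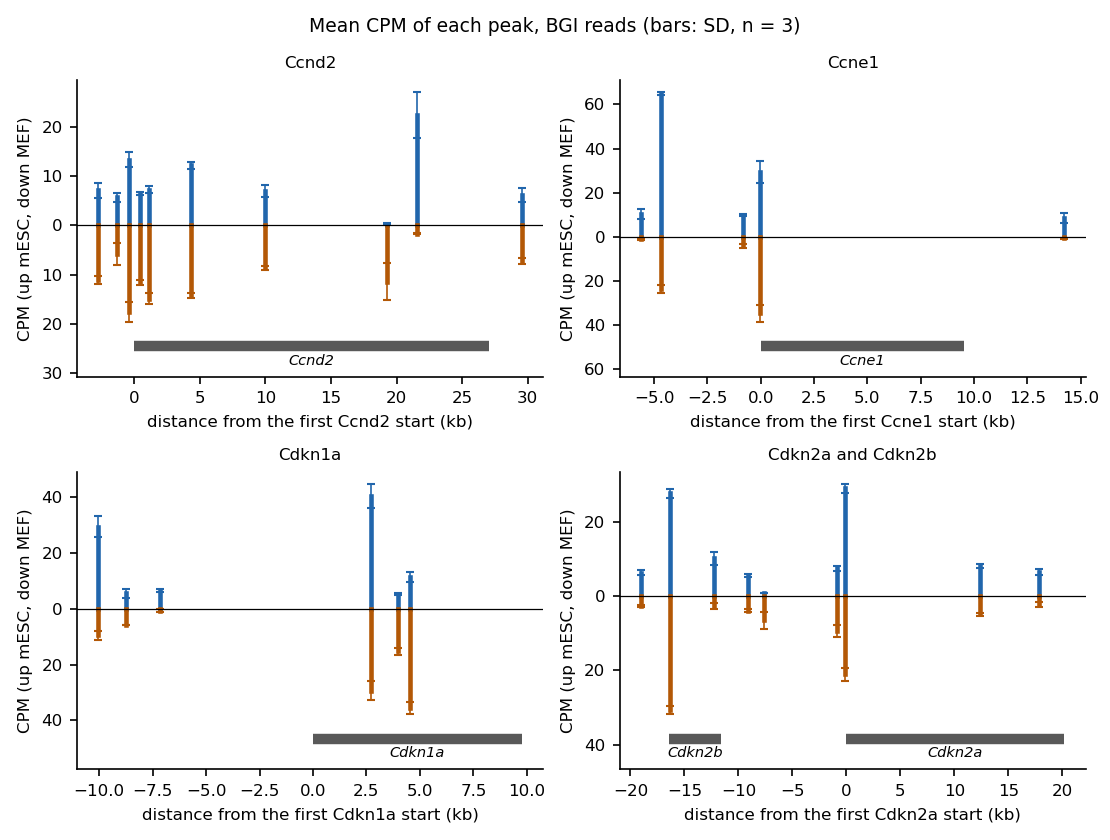
Mean CPM (BGI reads, bars with SD, n = 3 libraries) of each peak along Ccnd2, Ccne1, Cdkn1a and the pair Cdkn2a and Cdkn2b, by distance in kb from the first annotated start of the named gene, with mESCs upward, MEFs downward and gene bodies in grey. The Ccnd2 panel shows the adjacent MEF and mESC peaks near the 3′ end, and the Ccne1 panel the upstream peak that held 65.9, 64.8 and 64.7 CPM in mESCs.

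Cdkn2a (chr4:89274471-89294653, minus strand) uses separate starts for p19Arf and p16Ink4a, and both start regions were more accessible in mESCs. The p19Arf promoter at chr4:89294542-89295043 held 22.7, 19.1 and 21.1 CPM in MEFs and 27.9, 30.3 and 29.2 CPM in mESCs (0.41 ± 0.11, adjusted p = 0.00185). With Illumina reads the difference was 0.22 (adjusted p = 0.0245), and it was not called without MEF library 2 (adjusted p = 0.0915), MEF library 4 (0.231) or mESC library 3 (0.109). The p16Ink4a promoter at chr4:89282074-89282575 was weaker, with 4.29, 5.22 and 5.03 CPM in MEFs and 7.82, 8.81 and 8.20 CPM in mESCs (0.71 ± 0.19, adjusted p = 0.00225). Farther upstream of the p19Arf start, 89295273 was not called (-0.37 ± 0.18, adjusted p = 0.0693), except without MEF library 4 (-0.52, adjusted p = 0.00869). An exonic peak at 89276593 held 2.17, 1.54 and 2.79 CPM against 6.18, 6.03 and 7.45 CPM (1.53 ± 0.26, adjusted p = 2.86e-05).

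Cdkn2b (chr4:89306299-89311039, minus strand) lies beside Cdkn2a, and 2 peaks between them belong to both windows. Of these, chr4:89302053-89302554 was the strongest loss at the Ink4 genes, with 8.68, 6.81 and 4.03 CPM in MEFs and 0.883, 0.946 and 0.870 CPM in mESCs (-2.92 ± 0.34, adjusted p = 2.79e-07). Repeats made up 51.8% of its bases. The Cdkn2b promoter at 89310708 held 30.7, 29.5 and 31.9 CPM in MEFs and 28.6, 26.4 and 28.5 CPM in mESCs (-0.21 ± 0.09, adjusted p = 0.0468). That call was lost when any one library was left out (adjusted p = 0.0645 to 0.227), with RLE size factors (0.0934), DESeq2 (0.0682) or the depths before peak calling (0.556), and with Illumina reads (-0.15, adjusted p = 0.107). The exonic peak at 89306666, in contrast, rose from 2.08, 3.48 and 2.29 CPM to 12.3, 8.81 and 9.69 CPM (1.90 ± 0.23, adjusted p = 6.39e-07).

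Cdkn2c (chr4:109660876-109667189, minus strand) was lower in mESCs at its most accessible promoter peak. The peak at chr4:109666825-109667326 held 33.1, 34.8 and 33.3 CPM in MEFs and 25.1, 28.0 and 21.9 CPM in mESCs, with no overlap (-0.50 ± 0.11, adjusted p = 0.000373), and with Illumina reads the difference was -0.55. The other promoter peak, at 109665508, held 12.9, 14.0 and 18.2 CPM in MEFs and 17.5, 16.0 and 15.6 CPM in mESCs and was not called (0.06 ± 0.14, adjusted p = 0.707). A promoter peak of Faf1 at 109676044, on the edge of the window, was lower by the same amount as 109666825 (-0.50 ± 0.10, adjusted p = 0.000173). The other Faf1 promoter peak, at 109676677, held 18.4, 18.5 and 18.6 CPM in MEFs and 21.3, 21.8 and 20.9 CPM in mESCs. It was not called (0.14 ± 0.11, adjusted p = 0.241), but was called higher with the depths before peak calling (0.28, adjusted p = 0.0369). The promoter of 9630013D21Rik at 109657272 was higher (0.69 ± 0.17, adjusted p = 0.00122), and with Illumina reads (0.49) it was not called without MEF library 2 (adjusted p = 0.0738).

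**Figure D4:**
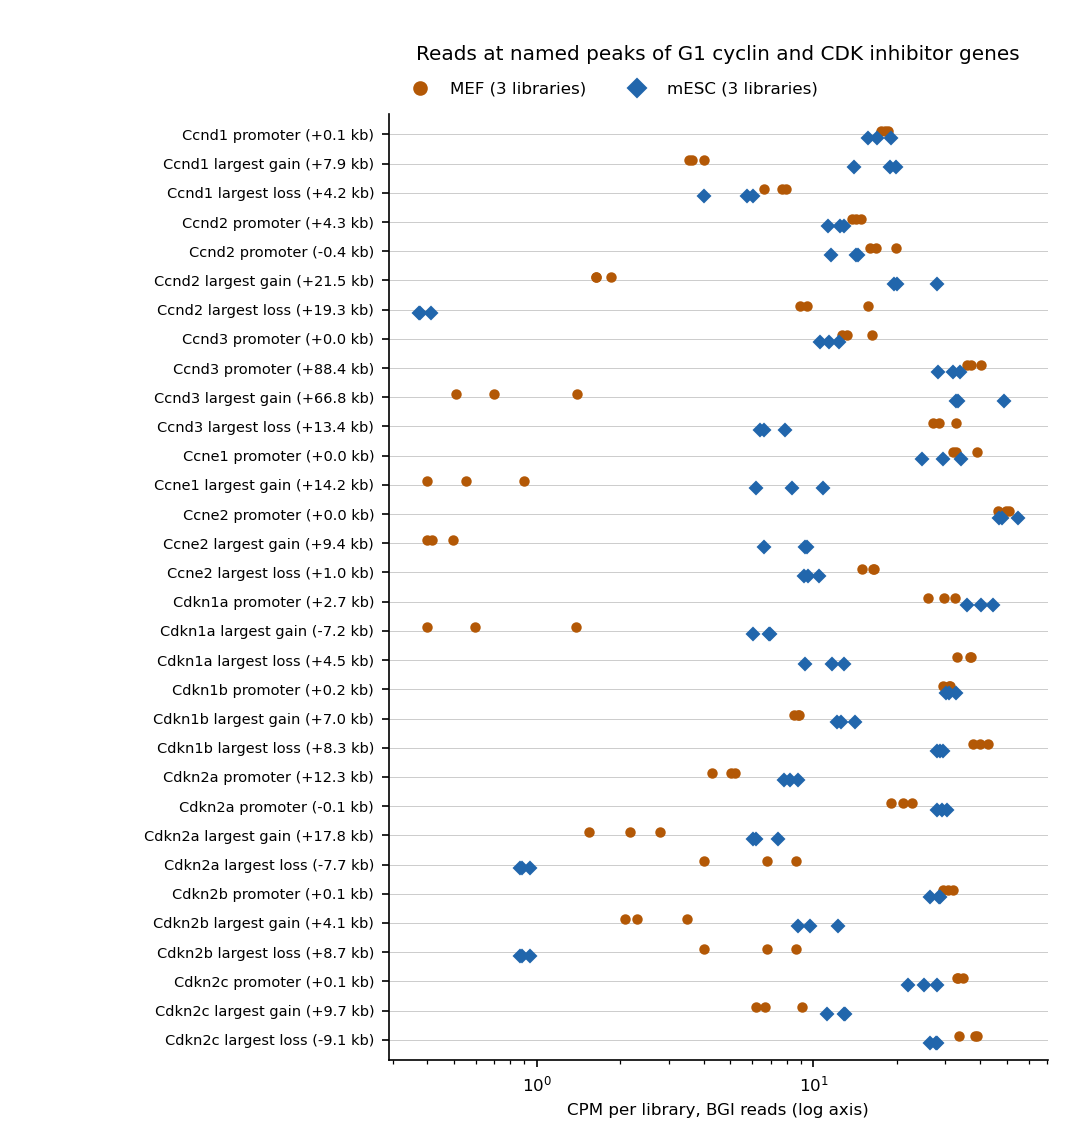
CPM of each library (log axis, BGI reads) at the promoter peaks and at the peaks with the largest gain and loss of each gene, with circles for MEFs and diamonds for mESCs (3 libraries each) and the distance in kb from the first annotated start in parentheses. The promoter rows lie close together or overlap between cell types, whereas the largest gains of Ccnd3 and Ccne2 and the largest loss of Ccnd2 are separated by more than a factor of 10.

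The p16Ink4a and Cdkn2c promoters were also compared with the promoter peaks of 14027 genes by the distance between their log2 values over the 6 BGI samples. The closest profiles to the p16Ink4a promoter were those of Zfp442 (distance 0.0742), Npnt (0.0995) and Slco5a1 (0.103). Those closest to the Cdkn2c promoter were Tmem132a (0.0596), Crybg3 (0.0635) and Cep131 (0.0704).

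Among 28 further genes of the pathway, 5 promoters were higher in mESCs, 11 were lower and 12 were not called with BGI reads, and 6, 12 and 10 with Illumina reads. Of all promoter peaks of the BGI set, 31.3% were higher and 41.0% were lower. The gains were E2f2, an activating E2F (1.11, adjusted p = 3.79e-07), Rbl1, which encodes the pocket protein p107 (0.65, adjusted p = 0.000311), Tfdp2, an E2F partner (0.43, adjusted p = 0.000495), Cdk6 (0.31, adjusted p = 0.0272) and Ccnb1 (0.24, adjusted p = 0.0218). E2f6, a repressive E2F, was the strongest loss, with 19.2 ± 1.62 CPM in MEFs and 7.31 ± 0.400 CPM in mESCs (SD, n = 3, -1.46, adjusted p = 2.35e-08). Rb1, the retinoblastoma gene itself, fell from 20.9 ± 2.39 to 14.2 ± 1.24 CPM (-0.61, adjusted p = 0.000259). Bmi1, which encodes a Polycomb repressor of the Cdkn2a locus, was also lower (-0.53, adjusted p = 0.00113). The other losses were E2f5 (-0.65), Tfdp1 (-0.61), Wee1 (-0.55), E2f1 (-0.38), Ccna2 (-0.36), Rbl2 (-0.34), Cdk2 (-0.33) and E2f3 (-0.27). E2f1 and E2f3 thus went the other way from E2f2. The promoters of Cdk4 (0.00, adjusted p = 0.972), Cdkn1c (-0.07, adjusted p = 0.517) and Cdkn2d (-0.14, adjusted p = 0.147) were not called.

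The sequences of the G1 peaks were searched on both strands for the letters of 10 motifs. SP letters (GGGCGG) were found in 38 of 71 peaks (53.5%), against 30.8% of all peaks, and in 19 of 28 own promoters (67.9%), against 58.0% of all promoter peaks. AP-1 letters (TGANTCA) were found in 7 of 71 peaks (9.86%), against 25.2% of all peaks. They were in none of the 28 own promoters, against 13.2% of all promoter peaks.

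SOX letters (CATTGTT) were in 10 peaks (14.1%, against 6.65% of all), octamer letters (ATGCAAAT) in 3 (4.23%, against 3.21%), ESRRB letters in 1 (1.41%, against 1.42%) and KLF letters in 5 (7.04%, against 7.04%). The CTCF motif was in 4 peaks (5.63%, against 9.66%), TEAD letters (GGAATGT) in 3 (4.23%, against 11.3%) and RUNX letters in 3 (4.23%, against 10.9%). E2F letters (GCGCGAAA or GCGGGAAA) were in 3 peaks (4.23%, against 1.32%), namely the p19Arf promoter, the Cdkn1a peak at 29094707 and the Ccnd1 peak at 144941407. These matches are counts of letters, and no test was run on them. At least 50% of the bases were repeats in 3 of 71 peaks (4.23%), against 5.65% of all peaks.

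Calls between the cell types were alike on both platforms at most G1 peaks, as over all peaks. Of the 71 BGI peaks, 63 had an Illumina peak that overlapped by at least 50%. Among these, 49 were called in the same direction on both platforms, 11 on neither, 2 with BGI reads alone, 1 with Illumina reads alone and 0 in opposite directions. Calls were thus alike or absent on both at 95.2% of these, against 94.6% of the 79625 matched peaks of the whole set. The median difference between the log2 fold changes was 0.08 in size, against 0.15 over all matched peaks. The peak sets were built from the same 6 libraries, so this compares sequencing runs and peak placement rather than independent cells.

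Both sequencing runs of each library were then compared directly within a cell type, in a peak set made for each cell type from both platforms. These peaks can be wider, from 502 to 1392 bp at the G1 genes in MEFs and to 1044 bp in mESCs, so their CPM differ from those above. In the MEF peak set, 6 of 51 G1 peaks were lower with BGI reads and 0 were higher when the samples were treated as unpaired, against 4.06% of all MEF peaks called in either direction. With the library as a block, 20 were lower and 3 were higher, against 15.3% and 13.9% of all MEF peaks. In the mESC set, 3 of 64 were lower and 0 were higher unpaired, against 3.23% called in all, and 20 were lower and 1 was higher with the block, against 15.6% and 5.78%. Without MEF library 1 or 2 the unpaired MEF count was 0 and without MEF library 4 it was 10, and the unpaired mESC count was 0 without mESC library 1 or 5. With the block, the lower MEF peaks numbered 14 without library 1, 13 without library 2 and 21 without library 4, with 1, 1 and 0 higher. The lower mESC peaks numbered 14 without library 1, 10 without library 3 and 16 without library 5, with 1, 0 and 0 higher.

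The G1 peaks lower with BGI reads were mostly promoters rich in G and C. The p19Arf promoter held 23.9, 20.6 and 22.7 CPM with BGI reads and 38.1, 36.9 and 33.9 CPM with Illumina reads of the same MEF libraries (-0.72 ± 0.06 with the block, adjusted p = 4.59e-15). In mESCs it held 28.6, 31.4 and 29.7 CPM against 41.0, 43.2 and 41.5 CPM (-0.54 ± 0.05, adjusted p = 8.1e-19). At the Ccne2 promoter the MEF values were 67.2, 63.9 and 68.6 CPM against 99.6, 100.0 and 99.9 CPM (-0.61 ± 0.05, adjusted p = 4.84e-17), and the difference was -0.55 ± 0.04 in mESCs (adjusted p = 2.46e-36). At the Ccne1 promoter it was -0.42 ± 0.06 in MEFs and -0.43 ± 0.06 in mESCs. All of these were lower with BGI reads in 3 of 3 libraries of each cell type.

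Of the MEF peaks with a GC content of at least 60%, 14 of 20 were lower with BGI reads (median -0.23), against 6 of 31 peaks below 60% (median 0.03), where the 3 higher peaks also lay. Over all MEF peaks 59.2% were lower at or above 60% (median -0.23) and 2.81% below it (median 0.12). In mESCs the G1 counts were 14 of 18 (median -0.29) and 6 of 46 (median -0.01), against 57.4% (median -0.23) and 3.05% (median 0.06) of all mESC peaks. The split by GC content was thus seen over all peaks, and whether the G1 peaks differ from them was not tested. Over the G1 peaks the difference between platforms and GC content had a Spearman rho of -0.66 and a Pearson r of -0.74 in MEFs (51 peaks) and -0.74 and -0.76 in mESCs (64 peaks). These describe peaks that share libraries and, at neighbouring promoters, base composition. The 3 MEF peaks that were higher with BGI reads were all at Ccnd3, at 47510983 (0.15), 47507874 (0.23) and 47518166 (0.27).

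**Figure D5:**
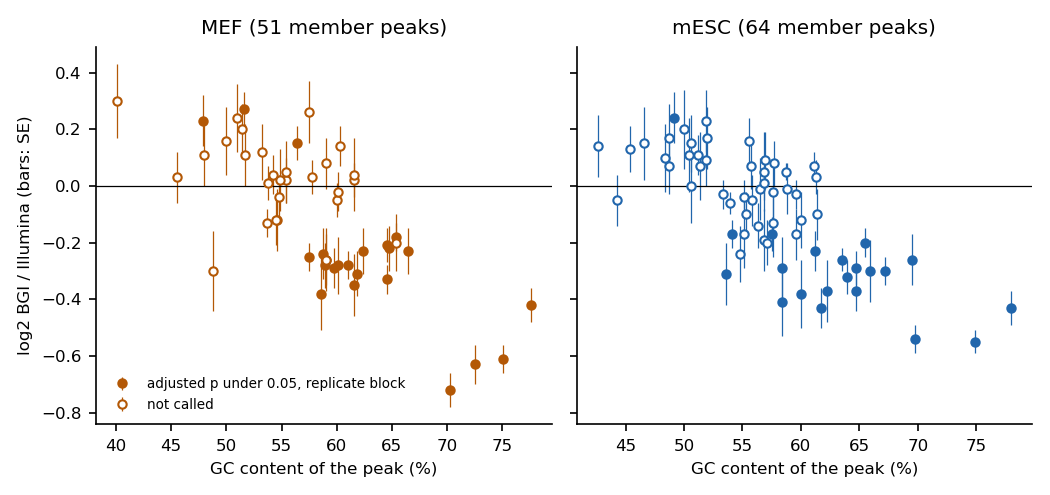
Log2 ratio of BGI over Illumina reads of the same libraries (vertical axis, blocked fit) against the GC content of each G1 peak in percent, in MEFs and in mESCs. Peaks at or above 60% lie mostly below 0, with medians of -0.23 and -0.29, and peaks under 60% scatter around 0.

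Whether the difference between mESCs and MEFs itself depended on the platform was tested as an interaction over all samples. Unpaired, edgeR called 0 of 71 G1 peaks, with 2 at an unadjusted p under 0.05, and 0 of all 91354 peaks, with 2386 at an unadjusted p under 0.05. With the library as a block, 1 of 71 was called, the p19Arf promoter, against 0.386% of all peaks. Its interaction was 0.32 on the log2 scale (adjusted p = 0.0431), but the median over all peaks, and over the 71 G1 peaks, was itself 0.11 with this scaling. With RLE size factors the median of all peaks was -0.01, the p19Arf value was 0.20 (adjusted p = 0.616), and 0 G1 peaks and 0 of all peaks were called. The separate fits of the platforms differed by 0.19 at this promoter (0.41 with BGI reads and 0.22 with Illumina reads).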

How the data were processed

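OMNI-ATAC-seq of 6 libraries (3 MEF, 3 mESC) was analysed, each read on both platforms. The authors trimmed the Illumina reads to 100 bp, removed adapters from all reads, aligned them with Bowtie2 to GRCm38 (mm10) and discarded mitochondrial and duplicate reads. They down-sampled the samples of each cell type to one depth (higher for MEFs). Summits were called per sample with MACS2 (version not given in the sources used here) and extended into peaks. Of overlapping peaks the authors kept the one with the highest score. They required a score cut-off in more than 1 sample and counted reads. The methods give a width of 501 bp, whereas the count tables list 502 bp in the sets of one platform, and some wider peaks at the G1 genes in the sets of one cell type. In the sets of one platform the listed start plus 250 was a summit position counted from 0 at 100% of peaks, so the listed starts lie 1 base before the region around the summit. Coordinates are printed as the tables list them. The deposited values used were these read counts per peak, the fold enrichment over background and the −log10 p-value of each summit. Columns with no platform in their name were taken as Illumina. No column of per-sample values was left unused (0).

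Counts were tested with edgeR 4.0.16 in R 4.3.3 (quasi-likelihood F test, TMM, filterByExpr, Benjamini-Hochberg over all peaks of a set, threshold 0.05). All 71 and 70 G1 peaks passed the filter. CPM is the count per 1000000 reads in the peak set, without TMM, and the standard error is the log2 fold change divided by the root of F. In comparisons of mESCs with MEFs only the reads of one platform entered. Platform comparisons were fitted unpaired, with the library as a block as an alternative, because both runs came from the same library. The deviations of same-numbered samples correlated at 0.514 to 0.836. Alternatives were DESeq2 1.42.0, RLE size factors, the down-sampled depths as library sizes, other filters, windows and thresholds, the other platform's columns, and leaving out each library. The fits were tested on simulated data. GENCODE M21 gene models gave positions, and a peak within 1 kb of an annotated start was a promoter peak. Starts over 2 kb apart were separate. The named peaks were, for each gene, the most accessible peak at each group of starts and the called peaks with the largest gain and loss, and other peaks named in the text were chosen after their values were seen. The genes, motifs, pathway and marker lists were chosen with earlier results of these data known. Intervals reflect the spread between these libraries. The counts limit precision most at peaks with few reads in one cell type.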

Additional observations from a re-analysis of the deposited data

Results flagged for a closer look

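The difference between mESCs and MEFs at the p19Arf promoter of Cdkn2a (chr4:89294542-89295043) was 0.41 with BGI reads and 0.22 with Illumina reads of the same libraries, each fitted alone, which differ by 0.19. Fitted together, the interaction was 0.32 on the log2 scale with the library as a block (edgeR adjusted p = 0.0431), and it was flagged because this test of the difference between platforms passed the threshold. On the Illumina peak set the same promoter, as the peak at 89294538, gave 0.33 (adjusted p = 0.0321). The median interaction over all peaks was 0.11 on the BGI set and 0.12 on the Illumina set, so both values include a shift shared by most peaks. With RLE size factors these medians were -0.01 and -0.01, the promoter gave 0.20 on each set, and the call was lost (adjusted p = 0.616 and 0.599). Without the block the value was 0.33 with an adjusted p of 1. The promoter had a GC content of 69.9% and was lower with BGI reads in both cell types, by -0.72 in MEFs and -0.54 in mESCs, and the part of base composition in the interaction was not tested.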

How the results depend on the processing

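The counts of G1 peaks called between mESCs and MEFs stayed within 1.5 times of 52 (BGI) and 55 (Illumina) under RLE size factors, DESeq2, both count filters, the down-sampled depths, the other platform's columns and windows of 2 kb. A test against a log2 fold change of 1 called 23 peaks on each platform, 18 higher and 5 lower. Gene bodies without extension held 32 called peaks (17 higher) for BGI and 33 (19 higher) for Illumina, and windows of 50 kb held 106 (66 higher, 40 lower) and 111 (70 higher, 41 lower). Leaving out each library gave 49 to 51 calls for BGI (31 to 34 higher, 17 to 20 lower) and 50 to 56 for Illumina (28 to 33 higher, 20 to 24 lower). Leaving aside the test against a log2 fold change of 1 and the other windows, 7 BGI and 10 Illumina peaks lost their call under at least 1 of the alternatives, and 9 and 9 gained one.

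Between platforms, the replicate block raised the calls to 23 in MEFs (20 lower with BGI reads, 3 higher) and 21 in mESCs (20 lower, 1 higher), and to 24 (21 lower, 3 higher) and 20 (19 lower, 1 higher) with the block and RLE size factors. Leaving out each library gave 0 to 10 calls in MEFs unpaired and 14 to 21 with the block (15 without library 1, 13 to 21 lower, 0 to 1 higher), and 0 to 4 in mESCs unpaired and 10 to 16 with the block (15 without library 1, 10 to 16 lower, 0 to 1 higher). The interaction gave 0 calls unpaired with each library left out, 1 with the block and 1 with the block on the Illumina peak set, but 0 on either set with the block and RLE size factors (of all peaks, 353 and 584 calls became 0 and 0). The blocked fits that left out a library or used RLE size factors, and the blocked interaction on the Illumina peak set, were added after the data were seen. No paired analysis was made for mESCs against MEFs. The cell types have only the number 1 in common, and nothing in the labels links the libraries that carry it.

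The down-sampled depths moved the median of all peaks from -0.08 to 0.06 (BGI) and from -0.03 to 0.09 (Illumina). Of the named peaks, 3 changed sign, none of them called as reported or with its sign changed. The Ccne2 promoter gained a call with Illumina reads without mESC library 3 (-0.19, adjusted p = 0.0115). The Ccnd1 promoter was 0.004 with down-sampled depths and 0.003 with the other platform's columns (BGI), and 0.126 with down-sampled depths and -0.139 to 0.153 with a library left out (Illumina, 0.066 without MEF library 4). The Ccne2 promoter was 0.097 and 0.048 with down-sampled depths (BGI, Illumina) and -0.093 to 0.02 with a library left out (BGI). The Cdkn1b promoter was 0.004 with RLE size factors and with DESeq2, 0.105 with down-sampled depths, and -0.059 to 0.034 with a library left out, 0.0 without mESC library 5. The cause of these changes was not tested. Depth limits the peaks with few reads in one cell type, such as Ccnd2 at 127132691, with 6, 7 and 6 reads in mESCs.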
